A study of Mus musculus with 12 samples.

Results

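Values are given here for 40 mouse genes of nucleolar ribosome biogenesis in CD4+ T cells with and without a mutant allele of Rasgrp1. Gene coordinates are GENCODE M21 on GRCm38. The genes were taken from a list of nucleolar and ribosome assembly factors, matched by Ensembl identifier to the gene symbol. Of the 40 listed genes, 40 were found as rows of their own among the 45669 rows of the count table. The rule itself used no measured value. The list was divided by role into 4 nucleolar scaffold and chaperone genes, 4 genes of box C/D and U3 snoRNPs (small nucleolar RNA-protein particles), 3 of box H/ACA snoRNPs, 14 of the small subunit, 11 of the large subunit and 4 of RNA polymerase I transcription.

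Ribosomes are assembled in the nucleolus, where RNA polymerase I transcribes the long precursor of the ribosomal RNAs. SnoRNPs direct methylation and pseudouridylation of that precursor, and the small subunit processome and the large subunit assembly factors fold it, cut it and load ribosomal proteins. Quiescent T cells keep this pathway low, and it is known to expand when the T cell receptor is engaged, in part through the transcription factor Myc. Rasgrp1 is the exchange factor that activates Ras downstream of the T cell receptor.

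Cells came from lymph nodes of 12-week-old C57BL6 mice that were homozygous for the Anaef allele of Rasgrp1 (Anaef/Anaef) or wild type (WT/WT), and were enriched for CD4+ T cells by bead-based negative selection. The Anaef allele is a point mutation, so the counts of Rasgrp1 do not check the genotype labels. Total RNA was sequenced from 20000 cells per library, with 4 Anaef libraries (numbered 5 to 8) and 4 WT libraries (1 to 4). Ribosome-protected fragments (RPF), the mRNA pieces that ribosomes cover and so protect from digestion, were sequenced after 1 minute of cycloheximide from 2 Anaef pools (3B and 4B) and 2 WT pools (1B and 2B), each made of 2 samples. The labels do not say which animals entered which library or pool, so all p-values measure the spread between these samples, which may in part be technical. Values in each list of libraries follow the numbers just given.

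Total counts were 18580747 to 39467754 in Anaef and 15326842 to 40046317 in WT total RNA, and 2868943 to 3464868 in Anaef and 4044330 to 7009342 in WT RPF. The 14 genes that mark CD4 T cells had counts in every group, led by Cd4 and Trac, with summed levels of 5468 to 7487 CPM (counts scaled to a library of 1000000 counts) in Anaef and 4993 to 5414 CPM in WT total RNA, and 9271 to 9797 CPM in Anaef and 8969 to 10202 CPM in WT RPF. In total RNA 13 of the 14 were higher in Anaef, with a median log2 fold change of 0.31, 0 called by edgeR and 4 higher at an unadjusted p under 0.05; in RPF 7 were higher and 7 lower, with a median of 0.0020, 0 called and 2 lower at an unadjusted p under 0.05. Of 10 plasma cell markers tested in total RNA, 9 were lower in Anaef and 1, Igha, was called lower, with 6 lower at an unadjusted p under 0.05 (9 of 11 in RPF, 0 called), and none of the 12 listed was at 0 throughout a group. Led by Igkc and Igha, they summed to 495 to 939 CPM in Anaef and 1430.4 to 6309.6 CPM in WT total RNA, and to 3276 to 9596 CPM in Anaef and 14159.9 to 34422 CPM in WT RPF. B cell markers, led by Cd74 and H2-Aa and with Cd22 at 0 in every RPF pool, were lower in Anaef for 14 of 14 genes tested in total RNA and 8 of 8 in RPF, with 0 called by edgeR and 5 lower at an unadjusted p under 0.05 in each assay. They summed to 37.4 to 123 CPM in Anaef and 91.8 to 184 CPM in WT total RNA, and to 130.2 to 217 CPM in Anaef and 221 to 336 CPM in WT RPF. Markers of CD8, NK and gamma-delta cells, led by Prf1 and Trdc, summed to 25.7 to 53.8 CPM in Anaef and 34.1 to 47.0 CPM in WT total RNA, and to 117 to 145 CPM in Anaef and 152 to 174 CPM in WT RPF. Myeloid and dendritic markers, led by Itgam and Xcr1 and with Cd14 at 0 in every library, summed to 15.4 to 26.8 CPM in Anaef and 31.6 to 37.9 CPM in WT total RNA, and to 20.4 to 39.1 CPM in Anaef and 35.0 to 48.9 CPM in WT RPF. Markers of cycling cells, led by Pcna and Mcm2, were lower in Anaef total RNA for 10 of 11 genes tested. The gene that was higher was Mcm2, at a log2 fold change of 0.29. In total RNA 0 were called by edgeR and 0 had an unadjusted p under 0.05. In RPF 6 were higher in Anaef and 5 lower, with 0 called and 1 higher at an unadjusted p under 0.05. The cycling markers summed to 219 to 286 CPM in Anaef and 250.1 to 379 CPM in WT total RNA, and to 1133 to 1167 CPM in Anaef and 1029.7 to 1272 CPM in WT RPF. The part of these other cells in the values below was not tested.

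Promoter windows were available for 34 of the 40 genes, each running from 250 bases before to 50 bases after a RefSeq start site (GRCm38.p6). Of these 34 genes, 8 held the E-box CACGTG, the sequence that dimers of Myc and Max are known to bind, which is 23.5%, against 8.09% of the 27025 genes in the table. The E-box reads the same on both strands and the searched letters do not overlap the other motif searched, CCAAT, which 13 of the 34 genes held on either strand, 38.2% against 41.1%. A match is a description of these letters and not of binding. The 8 E-box stretches are shown because they are what the members with a match share, 5′ to 3′ on the gene's strand with the E-box in capitals.
Ltv1 (chr10:13193092-13193121, - strand): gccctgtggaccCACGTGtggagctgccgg
Mybbp1a (chr11:72441355-72441376, + strand): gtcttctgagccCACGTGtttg
Nop2 (chr6:125131811-125131840, + strand): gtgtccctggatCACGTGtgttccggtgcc
Pes1 (chr11:3963965-3963994, + strand): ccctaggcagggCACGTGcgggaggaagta
Tsr1 (chr11:74898092-74898121, + strand): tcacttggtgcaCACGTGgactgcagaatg
Utp20 (chr10:88826765-88826789, - strand): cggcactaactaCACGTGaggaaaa
Utp4 (chr8:106893643-106893672, + strand): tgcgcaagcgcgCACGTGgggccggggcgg
Wdr43 (chr17:71616220-71616249, + strand): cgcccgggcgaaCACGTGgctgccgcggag
The E-box began 60 bases before the start site in Nop2 and 3 to 41 bases after it in the other genes. The 8 genes were spread over the small subunit (Ltv1, Tsr1, Utp20, Utp4, Wdr43), the large subunit (Nop2, Pes1) and RNA polymerase I transcription (Mybbp1a).

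The levels of the 40 genes spanned a wide range. Compared per length, as RPF CPM per kilobase of coding sequence, Npm1 was highest with 560.1 in Anaef and 712 in WT. Npm1 (ENSMUSG00000057113, chromosome 11, 33152287 to 33163206, minus strand) encodes nucleophosmin, the abundant scaffold protein of the outer nucleolus. Ncl (nucleolin) followed with 497 in Anaef and 563 in WT, and Fbl (fibrillarin, the methyltransferase of box C/D snoRNPs) with 346 in Anaef and 397 in WT. The lowest was Tsr1 (ENSMUSG00000038335, chromosome 11, 74898071 to 74909342, plus strand), a factor of the maturing small subunit, with 5.23 in Anaef and 5.71 in WT, below Nop16 and Nob1. The 3 subunits of the PeBoW complex of the large subunit lay between these extremes, Pes1 at 91.8, Bop1 at 64.7 and Wdr12 at 46.5 in Anaef, and 108, 60.0 and 46.4 in the same order in WT. Per kilobase of mRNA in total RNA, Npm1 was again highest with 1021 in Anaef and 983 in WT, followed by Nop56 with 72.2 and 80.9 and Dkc1 with 39.8 and 41.8. Npm1 alone took 44.8 to 57.6% of the members' total RNA counts in Anaef and 42.3 to 54.7% in WT, but 6.53 and 6.88% of their RPF counts in Anaef and 6.95 and 9.28% in WT. As a whole the 40 genes made up 0.273 to 0.330% of total RNA counts in Anaef and 0.311 to 0.353% in WT, and 0.719 and 0.748% of all RPF counts in Anaef and 0.765 and 0.752% in WT.

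In total RNA none of the 40 genes passed the test for a difference between the genotypes. All 40 were tested, and edgeR's quasi-likelihood test with Benjamini-Hochberg adjustment over 17876 genes called 0 of them, against 4 genes or 0.0224% of all genes tested. DESeq2 and limma-voom also called 0 of the 40. At an unadjusted p under 0.05, 0 members were higher in Anaef (2.73% of all genes) and 2 were lower (2.89% of all genes). The members' median log2 fold change was 0.02, against 0.01 over all genes, with 21 members above 0 and 19 below. Of the 40, 26 lay within 0.25 and 35 within 0.5 of 0 on the log2 scale, where the median standard error was 0.22. In bulk samples, fewer cells of a type and less RNA per cell cannot be told apart.

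In RPF none of the 40 genes passed the test either, with 0 called among 40 and 0 (0.0%) among all 9710 genes tested by edgeR, and 0 members by DESeq2 and by limma-voom. At an unadjusted p under 0.05, 0 members were higher in Anaef (4.92% of all genes) and 2 were lower (6.93% of all genes). The median log2 fold change was -0.09, against 0.01 over all genes, with 15 members above 0 and 25 below; it was 0.034 without Anaef pool 3B. Within 0.25 of 0 lay 29 members and within 0.5 lay 38, with a median standard error of 0.17. With 2 pools a side, groups that do not overlap are common: the Anaef pools were both above the WT pools for 9 members and both below for 9, which is 22.5% each, against 22.3% and 22.5% of all genes. In total RNA the groups did not overlap for 1 member, which was lower in Anaef, and for 0 members in the other direction, against 2.01% and 1.58% of all genes.

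**Figure D1:**
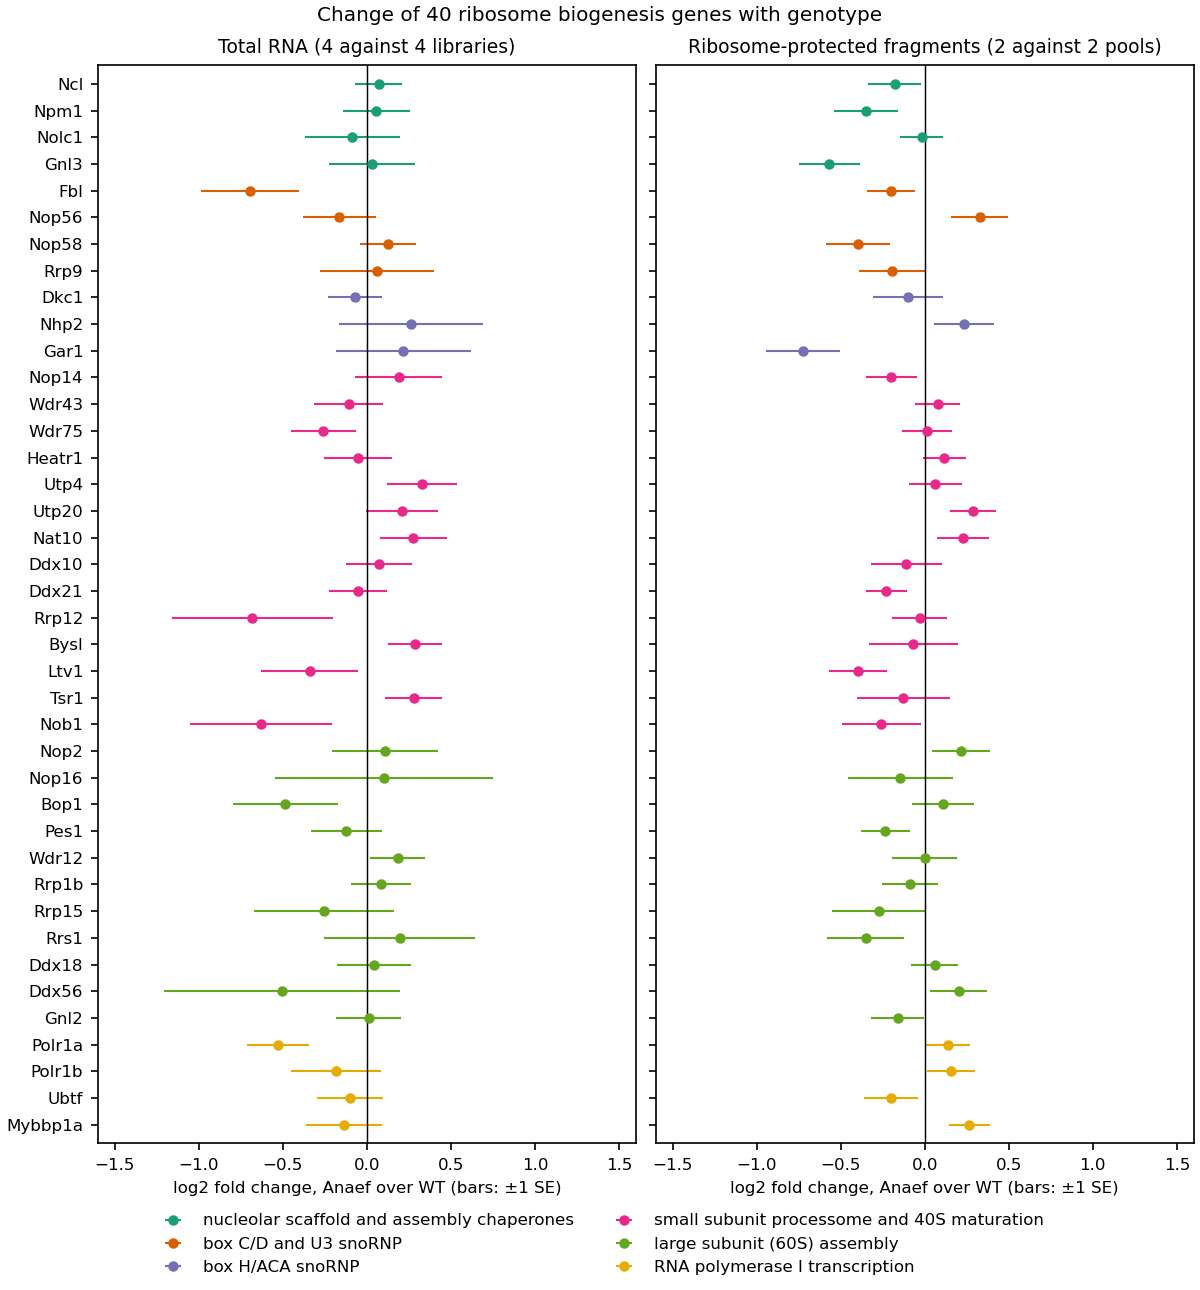
Log2 fold change of Anaef over WT (horizontal axis, bars ±1 standard error) for each of the 40 genes (rows, coloured by role) in total RNA on the left and RPF on the right. Most points lie within 0.5 of 0 in each assay, 35 of 40 in total RNA and 38 of 40 in RPF, and no gene passed the adjusted test.

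Among the 4 scaffold and chaperone genes, Gnl3 came closest to a difference. Gnl3 (ENSMUSG00000042354, chromosome 14, 31012433 to 31019152, minus strand) encodes nucleostemin, a nucleolar GTPase of proliferating cells. Its RPF level was 102 and 80.2 CPM in Anaef pools, against 145 and 125 CPM in WT pools, so both Anaef pools were below both WT pools. The log2 fold change was -0.57 ± 0.18 (SE), with an unadjusted p of 0.0170 and an edgeR adjusted p of 0.351. In total RNA Gnl3 was at 22.6, 13.9, 27.0 and 27.8 CPM in Anaef libraries, against 25.4, 23.8, 16.0 and 24.0 CPM in WT libraries, with groups that overlapped and a log2 fold change of 0.03 ± 0.26. Npm1 had 466 and 515 CPM in Anaef pools, against 735 and 513 CPM in WT pools, and pool 4B of Anaef slightly exceeded pool 2B of WT. Ncl, which binds ribosomal RNA precursors, had 1087 and 1023 CPM in Anaef pools, against 1336 and 1053 CPM in WT pools, and Nolc1, a chaperone of snoRNPs, had 288 and 302 CPM in Anaef pools, against 293 and 305 CPM in WT pools; both sets of values overlapped between genotypes. In total RNA the log2 fold changes of Ncl, Npm1 and Nolc1 lay between -0.09 and 0.07.

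The box C/D group held the only member whose total RNA groups did not overlap. That is 1 of 40 members, or 2.5%, against 2.01% of all genes with every Anaef library below every WT library. Fbl (ENSMUSG00000046865, chromosome 7, 28169710 to 28179269, plus strand) had 29.7, 11.1, 25.7 and 30.5 CPM in Anaef libraries, against 34.9, 45.7, 41.8 and 34.6 CPM in WT libraries, so every Anaef library was below every WT library, with library 6 the lowest. The log2 fold change was -0.69 ± 0.29, with an unadjusted p of 0.0372 and an edgeR adjusted p of 0.869. Pseudogene rows similar to Fbl held counts in total RNA, as given further on. Its RPF level was 319 and 359 CPM in Anaef pools, against 366 and 414 CPM in WT pools, again with both Anaef pools below both WT pools (log2 fold change -0.20 ± 0.14, edgeR adjusted p 0.609). Nop56 and Nop58 are paralogous scaffold proteins of the same particle. In RPF they differed from 0 in opposite directions without passing the test. Nop56 had 179 and 153 CPM in Anaef pools, against 119.7 and 145 CPM in WT pools (log2 fold change 0.33 ± 0.17, edgeR adjusted p 0.490). Nop58 had 133 and 120.4 CPM in Anaef pools, against 193 and 141 CPM in WT pools (log2 fold change -0.40 ± 0.19, edgeR adjusted p 0.461). For neither gene did the pools overlap, and in total RNA both overlapped, with log2 fold changes of -0.16 for Nop56 and 0.13 for Nop58. Rrp9, specific to the U3 particle that starts small subunit processing, had log2 fold changes of 0.06 ± 0.34 in total RNA and -0.19 ± 0.20 in RPF.

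Gar1 (ENSMUSG00000028010, chromosome 3, 129824912 to 129831396, minus strand), a core protein of the box H/ACA snoRNPs that carry out pseudouridylation, had the lowest RPF fold change of all 40 genes. Its RPF level was 33.5 and 24.4 CPM in Anaef pools, against 52.3 and 43.7 CPM in WT pools. Both Anaef pools lay below both WT pools, from 187 raw counts over the Anaef pools and 534 over the WT pools. The log2 fold change was -0.72 ± 0.22, with an unadjusted p of 0.0143 and an edgeR adjusted p of 0.344. With no filter on low counts Gar1 was called, at a log2 fold change of -0.74. That setting called many genes over the whole table, as counted in the last section, against 0 of 9710 with the filter. In total RNA Gar1 had 19.9, 6.16, 19.5 and 28.6 CPM in Anaef libraries, against 10.7, 17.5, 20.9 and 14.8 CPM in WT libraries. The groups overlapped, with Anaef library 6 the lowest and Anaef library 8 the highest of the 8 libraries. The other members of this particle were Dkc1 (dyskerin, the pseudouridine synthase), with log2 fold changes of -0.07 ± 0.16 in total RNA and -0.10 ± 0.21 in RPF, and Nhp2, with 0.26 ± 0.43 in total RNA and 0.23 ± 0.18 in RPF.

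The 14 small subunit genes split evenly in total RNA, 7 above 0 and 7 below, and in RPF 6 lay above 0 and 8 below. The smallest p-values among members higher in Anaef total RNA belonged to this group. Bysl (bystin, of the late pre-small subunit) had 50.9, 37.9, 52.4 and 48.2 CPM in Anaef libraries, against 39.5, 41.2, 40.3 and 34.2 CPM in WT libraries, and the groups overlapped through library 6 (log2 fold change 0.29 ± 0.16, edgeR adjusted p 0.915). Tsr1 had 43.2, 52.4, 37.9 and 35.6 CPM in Anaef libraries, against 35.6, 36.5, 32.4 and 34.7 CPM in WT libraries (log2 fold change 0.28 ± 0.17, edgeR adjusted p 0.925). Utp4, an early processome protein that also takes part in transcription of the precursor, had 19.2, 24.0, 24.3 and 28.9 CPM in Anaef libraries, against 18.9, 16.5, 17.3 and 24.0 CPM in WT libraries (log2 fold change 0.33 ± 0.21, edgeR adjusted p 0.934). In each of these genes at least 1 Anaef library lay within the WT range.

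Nat10, which acetylates small subunit ribosomal RNA, was above 0 in both assays. It had 27.4, 22.7, 28.7 and 30.5 CPM in Anaef libraries, against 24.3, 17.1, 27.2 and 21.8 CPM in WT libraries in total RNA (log2 fold change 0.28 ± 0.20, edgeR adjusted p 0.942). In RPF it had 86.0 and 94.9 CPM in Anaef pools, against 76.3 and 78.4 CPM in WT pools (log2 fold change 0.23 ± 0.15, edgeR adjusted p 0.599). The RPF pools did not overlap and the total RNA libraries did. Utp20, a very large processome scaffold protein, likewise had RPF pools that did not overlap, with 227 and 255 CPM in Anaef pools, against 198 and 196 CPM in WT pools (log2 fold change 0.29 ± 0.14, edgeR adjusted p 0.461).

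Other small subunit genes were below 0 in Anaef. Ltv1, which accompanies the pre-small subunit out of the nucleus, had RPF levels of 52.5 and 47.1 CPM in Anaef pools, against 69.1 and 62.2 CPM in WT pools, which did not overlap (log2 fold change -0.40 ± 0.17, edgeR adjusted p 0.429). Nob1, the endonuclease that makes the final cut of small subunit ribosomal RNA, had 12.5, 5.65, 13.9 and 30.7 CPM in Anaef libraries, against 19.9, 30.8, 22.4 and 24.3 CPM in WT libraries in total RNA. Anaef library 8 was within the WT range and the other 3 Anaef libraries were below it (log2 fold change -0.63 ± 0.42, edgeR adjusted p 0.934). Rrp12, in yeast an export factor of the subunits, had total RNA levels of 3.27, 5.10, 11.1 and 10.3 CPM in Anaef libraries, against 9.03, 6.09, 21.8 and 11.1 CPM in WT libraries, where WT library 3 stood above the rest, and a log2 fold change of -0.68 ± 0.48. The remaining genes of this group were Nop14, Wdr43, Wdr75 and Heatr1 of the processome and the RNA helicases Ddx10 and Ddx21, whose log2 fold changes lay between -0.26 and 0.19 in total RNA and between -0.23 and 0.12 in RPF.

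The 11 large subunit genes had a median log2 fold change of 0.04 in total RNA and -0.09 in RPF. Bop1 of the PeBoW complex, which is needed to process the large subunit's ribosomal RNAs, had 17.7, 8.47, 15.1 and 14.1 CPM in Anaef libraries, against 10.6, 20.7, 24.0 and 22.3 CPM in WT libraries in total RNA. WT library 1 lay within the Anaef range and the other WT libraries did not (log2 fold change -0.49 ± 0.31, edgeR adjusted p 0.934). In RPF Bop1 had 126 and 158 CPM in Anaef pools, against 118 and 146 CPM in WT pools, with pools that overlapped and a log2 fold change of 0.11 ± 0.18. The other 2 subunits did not share its values: Pes1 had log2 fold changes of -0.12 ± 0.21 in total RNA and -0.23 ± 0.15 in RPF, and Wdr12 had 0.18 ± 0.16 in total RNA and a value within 0.01 of 0 in RPF. The other genes were the GTPase Gnl2, the methyltransferase Nop2, the helicases Ddx18 and Ddx56, and the assembly factors Nop16, Rrp1b, Rrp15 and Rrs1, with log2 fold changes of -0.50 to 0.19 in total RNA and -0.35 to 0.22 in RPF. Total RNA counts of Ddx56, Nop16 and Rrs1 were low and standard errors wide, at 0.65 for Nop16 and 0.70 for Ddx56.

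The 4 genes of RNA polymerase I transcription were all below 0 in total RNA, and 3 of 4 were above 0 in RPF, none past the adjusted test. Over all genes, 8808 of 17876 were below 0 in total RNA. Of the 12 other polymerase I factors listed, 6 were above 0 and 6 below in total RNA, and 8 above and 4 below in RPF. Polr1a (ENSMUSG00000049553, chromosome 6, 71909053 to 71984935, plus strand), the largest subunit of the enzyme, had the smallest p of all 40 genes in total RNA. It had 50.8, 41.0, 60.4 and 37.9 CPM in Anaef libraries, against 75.6, 64.0, 58.7 and 75.4 CPM in WT libraries, so 3 of 4 Anaef libraries lay below every WT library and Anaef library 7 lay just above the lowest WT library. The log2 fold change was -0.53 ± 0.18, with an unadjusted p of 0.0164 and an edgeR adjusted p of 0.836. In RPF Polr1a had 211 and 221 CPM in Anaef pools, against 194 and 199 CPM in WT pools, with both Anaef pools above both WT pools (log2 fold change 0.14 ± 0.13, edgeR adjusted p 0.718). Mybbp1a, a nucleolar protein that binds Myb and takes part in ribosomal RNA synthesis, had RPF levels of 749 and 794 CPM in Anaef pools, against 629 and 655 CPM in WT pools, which did not overlap (log2 fold change 0.27 ± 0.12, edgeR adjusted p 0.450). In total RNA it had 68.0, 52.0, 88.1 and 84.0 CPM in Anaef libraries, against 97.2, 69.4, 57.2 and 97.3 CPM in WT libraries, with groups that overlapped (log2 fold change -0.14 ± 0.23). Polr1b, the next largest subunit, had log2 fold changes of -0.18 ± 0.27 in total RNA and 0.16 ± 0.14 in RPF, and Ubtf, which opens the ribosomal gene promoter, had -0.10 ± 0.20 and -0.20 ± 0.16.

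**Figure D2:**
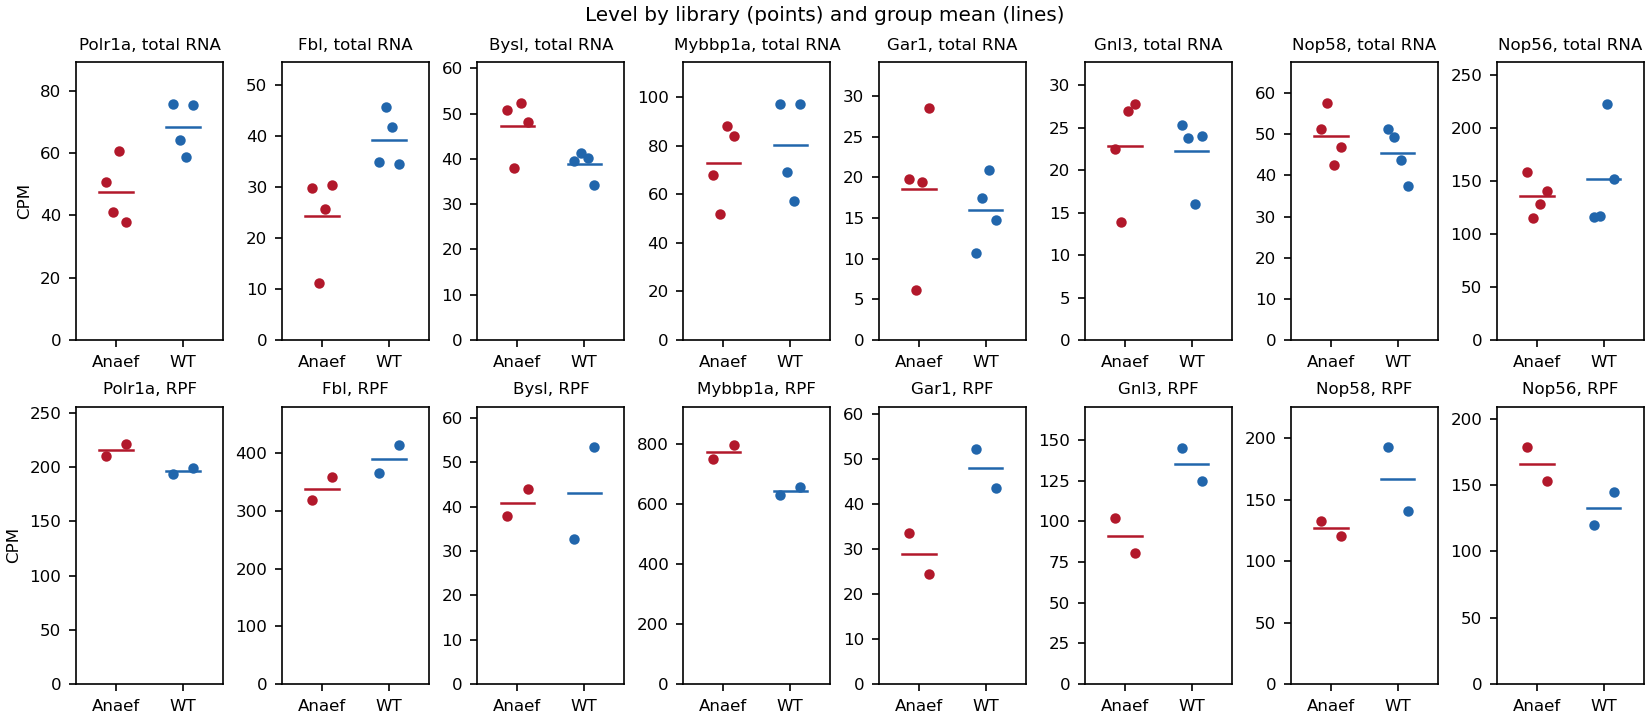
CPM of 8 members named for their small p-values (columns; total RNA in the top row, RPF in the bottom row), with Anaef left of WT, a point per library or pool and a line at the group mean. Among these 8, total RNA groups are apart only for Fbl, and RPF pools are apart for every gene but Bysl. The choice by small p-values favours groups that are apart. Over all genes, both Anaef pools are above both WT pools for 22.3% and below them for 22.5%. None of the differences passed the adjusted test.

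Whether the genotype changed footprints relative to RNA was tested as the interaction of genotype and assay over all 12 libraries. Of the 40 members, 0 were called by edgeR (0.0% of 19031 genes), and 0 by DESeq2 and limma-voom. At an unadjusted p under 0.05, 1 member was higher in Anaef (1.59% of all genes) and 0 were lower (1.76% of all genes). That member was Polr1a, with an interaction of 0.65 ± 0.27 on the log2 scale, an unadjusted p of 0.0342 and an edgeR adjusted p of 1.000. The next members above 0 were Nop56 (0.49 ± 0.37), Bop1 (0.59 ± 0.48) and Mybbp1a (0.39 ± 0.34), and those below 0 were Nop58 (-0.53 ± 0.29), Gnl3 (-0.61 ± 0.40), Gar1 (-0.95 ± 0.67) and Tsr1 (-0.42 ± 0.31), each with the edgeR adjusted p just given. The median over the members was -0.06, against 0.01 over all genes. Counting signs alone, 6 members were above 0 in both assays, 10 below 0 in both, 15 above 0 in total RNA and below in RPF, and 9 the other way round.

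The rest of the pathway was described with 126 of 130 listed genes, the other factors of polymerase I, both subunits, snoRNPs and the nuclear exosome. None of the 126 was called with the genotype in total RNA, in RPF or in the interaction by edgeR, and their medians were 0.02, -0.03 and -0.03. At an unadjusted p under 0.05, 6 were higher and 3 lower in Anaef total RNA, 3 higher and 5 lower in RPF, and 2 higher and 4 lower in the interaction. Over all genes the shares were 2.73% and 2.89% in total RNA, 4.92% and 6.93% in RPF, and 1.59% and 1.76% in the interaction. Of the 126 genes, those with the smallest p included the snoRNP assembly ATPase Ruvbl2 in total RNA (-0.76 ± 0.18, edgeR adjusted p 0.433). In RPF they included the processome protein Imp4 (1.31 ± 0.33, edgeR adjusted p 0.344) and the large subunit factor Eif6 (0.84 ± 0.21, edgeR adjusted p 0.344). Myc itself had a log2 fold change of 0.38 ± 0.21 in total RNA and -0.15 ± 0.15 in RPF. Of the 8 members with an E-box, 4 were above 0 and 4 below in total RNA, and 5 above and 3 below in RPF.

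Within each genotype, most members had more footprints than total RNA when each was scaled against all genes. In Anaef, 29 of 40 members were called higher in RPF and 4 lower (edgeR, adjusted p under 0.05), against 16.4% and 50.8% of all 18032 genes tested and 21.6% and 36.2% of 12008 nuclear protein-coding genes. In WT, 31 were called higher and 4 lower, against 19.6% and 54.4% of all 17775 genes and 26.5% and 39.3% of 11896 nuclear protein-coding genes. Of these, 29 were higher in both genotypes and 3 lower in both. The members' median log2 ratio of RPF over total RNA was 1.39 in Anaef and 1.61 in WT, against -0.47 and -0.36 over nuclear protein-coding genes. In each genotype 28 of 40 members were above the 75th percentile of those genes. The assays differ in library kit, depth and cells used, and mitochondrial counts took 16.4 to 27.8% of total RNA libraries and under 1% of each RPF pool, so the ratio is a position among genes and not an absolute translation rate. CPM in the sentences on this ratio are on the shared scale of both assays of a genotype and differ from those above.

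**Figure D3:**
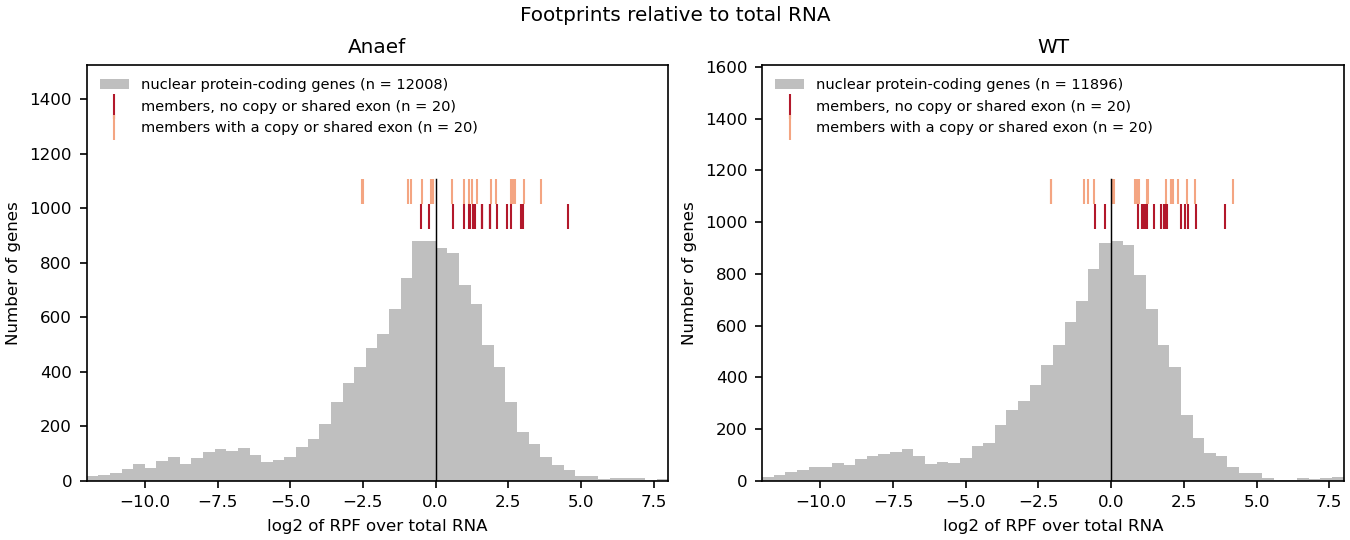
Number of nuclear protein-coding genes (grey bars) by log2 ratio of RPF over total RNA in Anaef (left) and WT (right), with a tick for each member above the bars, split by whether the gene has a pseudogene row with counts or an exon shared with another gene. Most ticks stand right of 0, where 30 of 40 members lie in Anaef and 33 in WT, and of the 20 members with neither feature none was called lower.

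The highest ratios belonged to the large subunit group. Ddx56 (ENSMUSG00000004393, chromosome 11, 6258919 to 6267772, minus strand), an RNA helicase, had 70.6 and 76.0 CPM in Anaef RPF and 0.370, 3.66, 5.39 and 2.76 CPM in Anaef total RNA, a log2 ratio of 4.56 ± 0.70 (edgeR adjusted p 6.38e-04). In WT it had 60.5 and 73.5 CPM in RPF and 6.63, 1.76, 2.41 and 6.97 CPM in total RNA, a log2 ratio of 3.90 ± 0.54 (edgeR adjusted p 3.57e-04). Every pool was above every total RNA library, the lowest of which held 6 raw counts. Rrs1 (ENSMUSG00000061024, chromosome 1, 9545408 to 9547455, plus strand), which in yeast helps bring the smallest large-subunit RNA into the particle, had 35.9 and 40.1 CPM in Anaef RPF and 1.97, 3.70, 3.43 and 3.16 CPM in Anaef total RNA (log2 ratio 3.62 ± 0.34), and 41.6 and 60.5 CPM in WT RPF and 1.4, 3.16, 2.12 and 4.29 CPM in WT total RNA (log2 ratio 4.21 ± 0.42). Pes1 had 106 and 117 CPM in Anaef RPF and 19.0, 18.3, 17.7 and 12.6 CPM in Anaef total RNA (log2 ratio 2.72 ± 0.23), and 147 and 129 CPM in WT RPF and 19.2, 17.1, 20.2 and 19.0 CPM in WT total RNA (log2 ratio 2.87 ± 0.16). In this group 8 of 11 genes were called higher in each genotype and none lower. Wdr12, Rrp1b and Nop16 were the genes not called. Of the 48 other large subunit factors listed, 25 were called higher and 7 lower in Anaef, and 30 higher and 5 lower in WT.

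High ratios were also found in other roles. Nolc1 had 202 and 208 CPM in Anaef RPF and 40.5, 29.9, 17.9 and 18.0 CPM in Anaef total RNA (log2 ratio 2.95 ± 0.33), and 215 and 221 CPM in WT RPF and 24.8, 30.0, 34.6 and 26.4 CPM in WT total RNA (log2 ratio 2.91 ± 0.18). Fbl had 223 and 248 CPM in Anaef RPF and 34.7, 13.0, 30.1 and 35.6 CPM in Anaef total RNA (log2 ratio 3.05 ± 0.36), and 269 and 299.7 CPM in WT RPF and 41.8, 54.4, 50.9 and 41.2 CPM in WT total RNA (log2 ratio 2.59 ± 0.17). Rrp12 had 63.8 and 77.9 CPM in Anaef RPF and 3.82, 5.96, 12.9 and 12.0 CPM in Anaef total RNA (log2 ratio 3.02 ± 0.46), and 77.0 and 75.1 CPM in WT RPF and 10.8, 7.26, 26.6 and 13.3 CPM in WT total RNA (log2 ratio 2.41 ± 0.45). For these 3 genes every pool again lay above every library, with edgeR adjusted p of 1.27e-04, 1.51e-04 and 6.47e-04 in Anaef and 8.44e-06, 1.13e-05 and 0.00172 in WT. Pseudogene rows similar to Fbl held counts in total RNA and 0 in RPF, as given further on, and their part in its ratio was not tested. All 4 polymerase I genes were called higher in each genotype, from 1.35 (Ubtf) to 2.65 (Mybbp1a) in Anaef and from 0.80 (Polr1a) to 2.28 (Mybbp1a) in WT. The 12 other polymerase I factors listed did not share this. Of them, 4 were called higher and 1 lower in Anaef, and 5 higher and 1 lower in WT. Of nuclear protein-coding genes, 21.6% were called higher in Anaef and 26.5% in WT. Of the 14 small subunit genes, 10 were called higher and 2 lower in Anaef and 11 higher and 1 lower in WT. Of the 41 other small subunit factors listed, 20 were called higher and 6 lower in Anaef, and 29 higher and 5 lower in WT.

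Npm1 and Tsr1 stood at the other end. Npm1 had 326 and 355 CPM in Anaef RPF and 1911, 1905, 1524 and 2454 CPM in Anaef total RNA, a log2 ratio of -2.52 ± 0.24 (edgeR adjusted p 5.21e-05), and 540.1 and 371 CPM in WT RPF and 1903, 1825, 2561 and 1425 CPM in WT total RNA, a log2 ratio of -2.08 ± 0.28 (edgeR adjusted p 3.49e-04). Tsr1 had 7.63 and 9.86 CPM in Anaef RPF and 50.4, 61.3, 44.3 and 41.5 CPM in Anaef total RNA, a log2 ratio of -2.50 ± 0.30 (edgeR adjusted p 1.84e-04), and 9.33 and 10.7 CPM in WT RPF and 42.6, 43.5, 39.5 and 41.3 CPM in WT total RNA, a log2 ratio of -2.06 ± 0.20 (edgeR adjusted p 6.07e-05). In both genes every pool lay below every library. Dkc1 was called lower in both genotypes too, at -0.85 ± 0.22 in Anaef (edgeR adjusted p 0.00940) and -0.79 ± 0.20 in WT (edgeR adjusted p 0.00869); without Anaef pool 3B or without WT pool 2B it was no longer called, and per length it was at 0.02 in Anaef and 0.09 in WT. Bysl was called lower in Anaef (-0.96 ± 0.24, edgeR adjusted p 0.00733) and not in WT (-0.57 ± 0.24, edgeR adjusted p 0.0579). Per length Bysl was at 0.60 in Anaef and 0.99 in WT, by a step that can only raise a ratio. Nop56 was called lower in WT (-0.92 ± 0.31, edgeR adjusted p 0.0261) and not in Anaef (-0.46 ± 0.20, edgeR adjusted p 0.0710). Gar1 and Nop14 were called higher in WT (0.87 and 0.97) and not in Anaef (-0.10 and 0.55). None of these 4 genes passed the interaction test, so a difference between the genotypes was not shown.

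**Figure D4:**
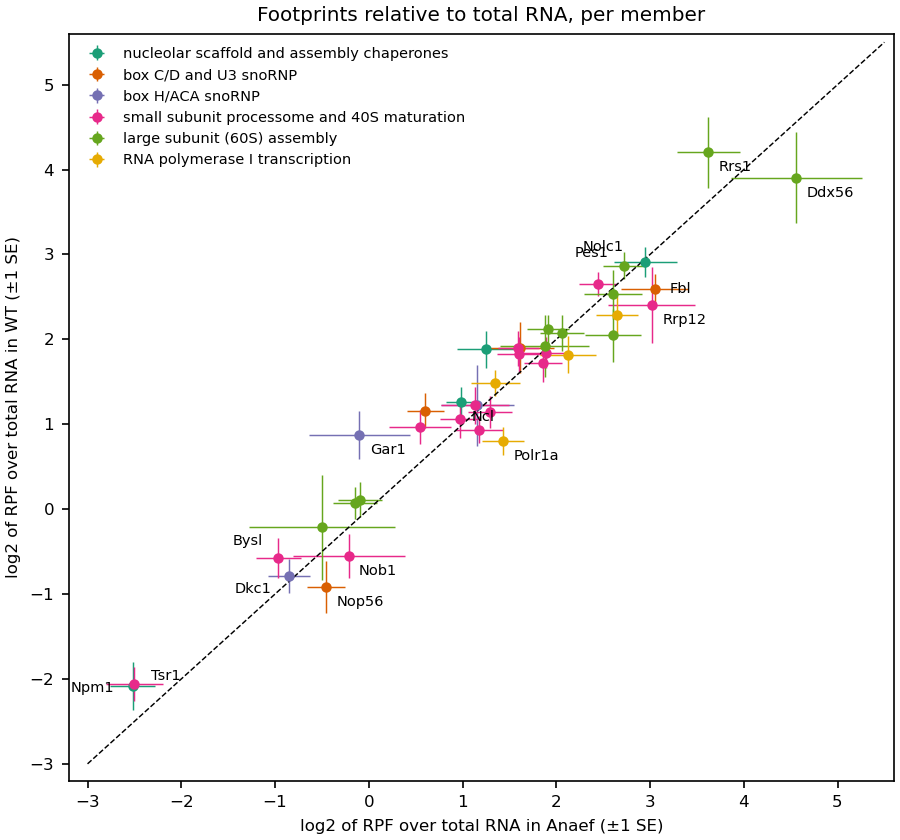
Log2 ratio of RPF over total RNA in Anaef (horizontal) and in WT (vertical) for each member, coloured by role, with bars of ±1 standard error and a dashed line where the genotypes have the same ratio. The members lie along the line, from Npm1 and Tsr1 near -2.5 in Anaef and -2.1 in WT to Rrs1 and Ddx56 above 3.5 in each.

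The order of the members was much the same in the genotypes, with a Spearman rho of 0.953 between their ratios over the 40 genes, which share library kits, gene lengths and base composition. The listed genes of the rest of the pathway also lay mostly above 0, with 67 of 126 called higher and 14 lower in Anaef and 83 higher and 11 lower in WT by edgeR. Of nuclear protein-coding genes, 21.6% were called higher and 36.2% lower in Anaef, and 26.5% and 39.3% in WT. Among the 126 listed genes Imp4, which works beside the U3 particle, was at -3.18 ± 0.34 in Anaef and -4.67 ± 0.30 in WT. Its processome partner Imp3 was at 3.88 ± 0.32 in Anaef. In the Myc network, where 0 of 10 genes tested in total RNA and 0 of 8 in RPF were called with the genotype, Max (the partner of Myc) was at -3.63 ± 0.28 in Anaef and -3.11 ± 0.17 in WT, while Myc was at 0.09 ± 0.26 in Anaef and 0.65 ± 0.20 in WT.

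Because footprints fall on coding sequence and total RNA on the whole mRNA, the ratio between genes also depends on length. Per length, using the annotated principal transcript, the members' median log2 ratio was 2.00 in Anaef and 2.05 in WT, and 37 and 36 of 40 members were above 0. The step adds the log2 of mRNA length over coding length. It can therefore only raise a ratio, and a value above 0 after it is no sign of a high ratio among genes. Of the members called lower, Dkc1 in each genotype and Bysl in Anaef were above 0 after this step, as given above, while Npm1 (-1.62 in Anaef and -1.18 in WT), Tsr1 (-2.01 and -1.57) and Nop56 (-0.35 and -0.81) were still below 0. Wdr12, whose principal transcript of 10012 bases holds a coding sequence of 1269, was at -0.15 in Anaef before and 2.83 after this step. Over all exons of each gene, the members' median was 2.58 in Anaef and 2.49 in WT, against 1.09 and 1.21 for nuclear protein-coding genes, and 22 members in Anaef and 20 in WT were above the 75th percentile, fewer than the 28 before. Both length steps were added after seeing the data.

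Several members share sequence with processed pseudogenes, and the counts on those rows differed between the assays. A search of each member's mRNA with blastn against pseudogene transcripts (at least 90% identity over 300 bases) found such rows with counts for some members. Counts on these rows come on top of those on the gene's own row and are given here as a percentage of them. For Npm1 they equalled 71.3% of the gene's own counts in Anaef and 70.6% in WT total RNA, and 44.0% in Anaef and 48.8% in WT RPF. For Fbl they equalled 87.6% and 89.3%, for Ddx18 73.9% and 74.7%, and for Nop56 32.4% and 31.9% in Anaef and WT total RNA. In RPF these rows held 0 counts for Fbl, Ddx18 and Nop56. The counts of Npm1, Fbl, Ddx18 and Nop56 are therefore uncertain, since the sources used here do not say how the authors assigned shared reads. Exons also overlapped genes on the other strand, most for Tsr1 (34.2% of its mRNA, with Srr) and Bysl (9.37%, with Ccnd3), and the strand setting of the counting is not given. After seeing the data, members with any pseudogene count or any shared exon base were set apart, however few. Gar1 was set apart by 2 pseudogene counts. For Dkc1, called lower, counts on pseudogene rows equalled 0.3006% of its own counts in Anaef and 0.4285% in WT total RNA. Of the 20 members with neither feature, 18 were called higher in RPF and 0 lower in each genotype. Of the other 20, 11 were called higher and 4 lower in Anaef, and 13 higher and 4 lower in WT. No such split is given for all genes. Fbl and Ddx18, whose pseudogene rows held counts in total RNA and 0 in RPF, were both called higher in each genotype. The part of shared reads in the low ratios and in the high ratios was not tested.

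**Figure D5:**
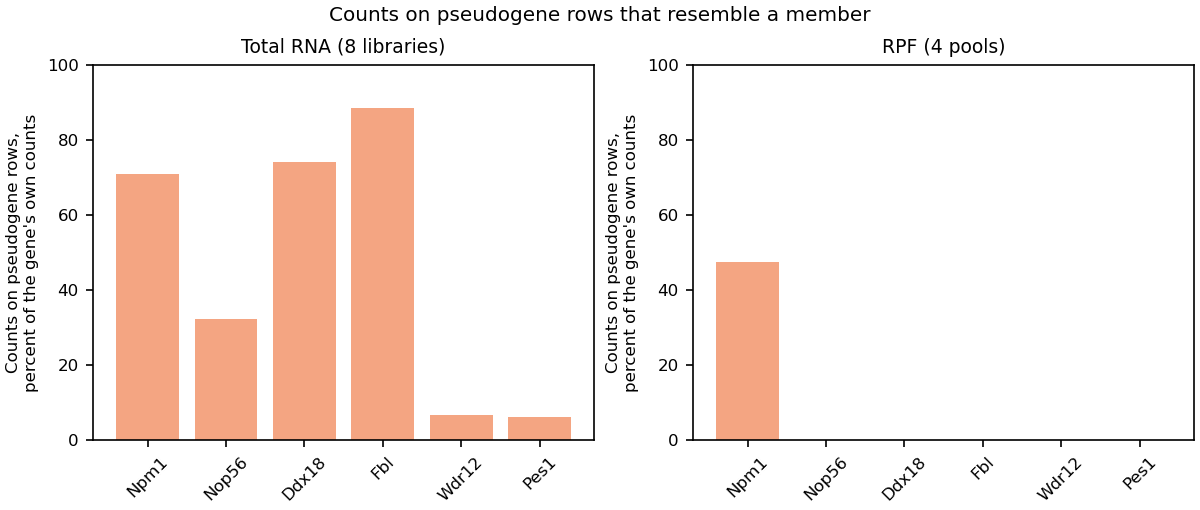
Counts on pseudogene rows that resemble a member, as a percentage of that member's own counts (vertical axis, from 0), over the 8 total RNA libraries on the left and the 4 RPF pools on the right, for 6 members. In total RNA the bars reach 88.6% for Fbl, 74.3% for Ddx18 and 71.0% for Npm1, and in RPF only Npm1 has a bar, at 47.3%.

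A feature the list did not use is that members host snoRNA genes. In 7 of 40 members (17.5%) an annotated snoRNA lies within the gene on the same strand, against 237 of 21008 nuclear protein-coding genes (1.13%). The 21008 include genes with too few counts to be tested, while all 40 members were tested, so the groups are not alike in expression. The 7 were Ncl, Gnl3, Nop56, Nop58, Dkc1, Wdr43 and Tsr1, and so span scaffold, snoRNP and small subunit roles. Their log2 ratios ran from -2.50 (Tsr1) to 1.29 (Wdr43) in Anaef and from -2.06 (Tsr1) to 1.88 (Gnl3) in WT, with Tsr1, Dkc1 and Nop56 below 0 and the other 4 above 0 in each genotype.

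Spread between replicates differed between the assays. The members' median coefficient of variation in total RNA was 22.1% in Anaef and 18.2% in WT, against 31.7% and 25.0% for nuclear protein-coding genes. In RPF, where each value is a pool of 2 samples and each genotype has 2 pools, it was 7.80% in Anaef and 9.73% in WT. For nuclear protein-coding genes the RPF values were 11.1% in Anaef and 12.0% in WT. In total RNA the most even member was Ncl in Anaef (9.93%) and Tsr1 in WT (5.03%), and the least even was Ddx56 in Anaef (68.6%) and Nop16 in WT (67.7%). Anaef library 6 was the lowest of the 8 total RNA libraries for 14 of 40 members (35%), among them Fbl, Gar1 and Gnl3, against 19.3% of nuclear protein-coding genes. WT library 3, the shallowest, was the highest for 9 members (22.5%), against 15.9% of those genes.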

How the data were processed

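Total RNA and RPF libraries of lymph node CD4+ T cells were grouped by the genotype and assay in the labels. The authors deposited read counts per gene for all libraries, masked for RPF per the file headers; the sources used here name no counting tool, annotation, strand setting or mask. Per the submitters' processing notes, reads were aligned with TopHat 1.4.1 to GRCm38. Identifiers were matched to GENCODE M21 (44595 of 45669 rows; 263 rows joining several identifiers were not split, and 811 had no match).

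Tests on these counts used edgeR 4.0.16 and R 4.3.3 (quasi-likelihood F test, TMM scaling, filterByExpr, Benjamini-Hochberg adjustment at 0.05 over all genes tested). Total RNA was fitted on 8 libraries, RPF on 4, the ratio of RPF to total RNA on the 6 libraries of a genotype and the interaction on 12. A standard error is the fold change divided by the root of its F statistic. The fits were tested on simulated data with 1 fixed spread between libraries that was not taken from these data. A simulated log2 change of 1 was recovered for 100% of changed genes in total RNA and 75.8% in RPF. It was recovered for 57% in the Anaef ratio, 60% in the WT ratio and 21% in the interaction. The interaction recovered 59% at a log2 change of 2, so 0 calls there do not exclude changes of these sizes. Because the simulated spread was not matched to these data, recovery in total RNA and RPF is not the power of those tests here. In those assays too, 0 calls do not exclude a log2 change of 1. DESeq2 1.42.0, limma 3.58.1 (voom), other scalings, filters and gene sets, a joint fit and leaving out each library were alternatives. Members and lists were chosen with earlier results of these data known. In each genotype comparison the 4 members with the smallest p in each direction are named with full values, and for each ratio the 4 highest and 4 lowest; other genes were named by counts. The length step, the count of members with neither copies nor shared exons, snoRNA hosts and marker details were added after seeing the data. Similar pseudogenes were found with blastn 2.17.0, and promoters are from RefSeq (GRCm38.p6). Counts per member ran from 6 to 73721 per total RNA library and from 26 to 9051 per RPF pool, and the labels name no molecular identifiers.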

Additional observations from a re-analysis of the deposited data

Results flagged for a closer look

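In groups of 4 total RNA libraries, 1 library stood far from the other 3 for 7 of the 80 combinations of member and genotype examined; about 1 in 20 do so by chance. In Anaef, Nhp2 was at 13.9 CPM in library 8, against 6.53 to 7.18 CPM in the other 3 libraries. Wdr43 was at 31.2 CPM in Anaef library 5, against 49.3 to 51.9 CPM in the others. In Anaef library 6, Utp20 was at 54.6 CPM, against 32.5 to 34.3 CPM in the others, and Nop16 at 1.07 CPM, against 8.43 to 9.45 CPM. In WT library 3, Ncl was at 364 CPM, against 281 to 284 CPM in the others, and Gnl3 at 16.0 CPM, against 23.8 to 25.4 CPM. Ddx10 was at 41.0 CPM in WT library 2, against 29.3 to 29.9 CPM in the others. No pool of RPF was examined in this way, since each genotype has 2.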

How the results depend on the processing

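For the genotype, 0 members were called in total RNA, RPF and the interaction under every alternative run (DESeq2, limma-voom, RLE scaling, no filter, a mean of at least 50 counts, nuclear protein-coding genes only, a joint fit for total RNA and RPF, and each library left out), except that with no filter 1 member, Gar1, was called lower in RPF. Counts over all genes moved more. Total RNA gave 4 genes by edgeR, 168 by DESeq2, 2 by limma-voom and 0 on nuclear protein-coding genes, and 0 to 3 with a library left out (0 without Anaef 5, 7 or 8, 1 without WT 2). RPF gave 0 genes, but 55 by DESeq2, 514 with no filter, 6 on nuclear protein-coding genes and 0 to 211 with a pool left out (211 without Anaef pool 3B, 14 without Anaef 4B, 1 without WT 2B, where a lone pool is assumed to vary like the other group). The interaction gave 0, 10 by DESeq2 and 0 to 1 with a library left out (1 without WT 1). The members' median in RPF ranged from -0.14 (without Anaef 4B) to 0.034 (without Anaef 3B), in the interaction from -0.18 (without Anaef 4B) to -0.0069 (without Anaef 3B), and in total RNA from -0.059 (without Anaef 8) to 0.030 (without Anaef 7).

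For RPF over total RNA in Anaef, members called higher ranged from 24 to 29 and lower from 2 to 5 with a library left out, and limma-voom called 2 lower; Bysl and Dkc1 lost their calls there and without pool 3B. The Anaef median was 1.39, and 1.51 by DESeq2, 1.52 with RLE scaling, 1.52 at a mean of 50 counts, 2.00 per length and 1.34 to 1.51 with a library left out. Genes called over the whole table were 12106, 7909 by limma-voom, 6717 on nuclear protein-coding genes and 8624 to 12027 with a library left out. In WT, members called higher ranged from 29 to 31 and lower from 3 to 4, the median from 1.50 (without 1B) to 1.75 (without library 3) and 2.05 per length, and genes called were 13157, or 7740 on nuclear protein-coding genes. Nop56 lost its WT call by limma-voom and without either WT pool. Of the 20 members with neither copies nor shared exons, 18 were called higher and 0 lower in each genotype, and of the other 20, 11 were called higher in Anaef and 13 in WT, with 4 lower in each. Where a value moved, the cause was not tested unless said. Per length, a step that can only raise a ratio, called members that changed sign were Dkc1 (0.024 in Anaef, 0.090 in WT) and Bysl (0.60 in Anaef). Bysl, not called in WT, was at 0.99 there. In the comparison for which a member was named by its p or ratio, no sign changed under the other alternatives. In other comparisons such members did change sign. For example, in RPF Bop1 ran from -0.066 to 0.27 and Bysl from -0.40 to 0.32. Among all fitted values of members, signs changed in 40 of 600 in total RNA, 22 of 439 in RPF, 46 of 720 in the interaction, 10 of 520 in the Anaef ratio and 3 of 520 in the WT ratio. No paired analysis was possible because the genotypes share no replicate numbers and the labels do not tie pools to libraries. Depth limits RPF most for Nop16 and Tsr1, with 53 and 79 counts over the Anaef pools, against 100 and 147 over the WT pools.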
